A study of Mus musculus with 14 samples.

Results

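Polyamine synthesis and breakdown was followed through 10 genes chosen by symbol among the 24421 entries of the count tables: Odc1, Amd1, Srm and Sms, which encode the enzymes of synthesis, Oaz1, Oaz2 and Azin1, which encode regulators of ornithine decarboxylase, and Sat1, Smox and Paox, which encode the enzymes of breakdown. Messenger RNA had been sequenced from 12 mouse gastric tumours that grew after transplantation, in 4 groups of 3 libraries. The groups were orthotopic TMPC, subcutaneous TMPC, subcutaneous TMP and subcutaneous TM tumours. All tumours were taken 2 months after transplantation, the first group from the organ of origin and the others from under the skin. TM, TMP and TMPC are used as names only, since no label says what the letters stand for. The alleles behind them, the host strain, the age of the mice and whether a group came from 1 clone or from several are not given here. Nothing in the labels says that replicates were separate animals. The p-values therefore measure the spread between libraries, which may not be the spread between animals. In tumour pieces of this kind, fewer cells of a type and less RNA per cell cannot be told apart.

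Putrescine, spermidine and spermine are small positively charged molecules that bind nucleic acids and are needed by dividing cells. Odc1 makes putrescine from ornithine, Amd1 supplies the aminopropyl donor, and Srm and Sms add aminopropyl groups to give spermidine and then spermine. Antizymes bind Odc1 and send it to the proteasome, the antizyme inhibitor Azin1 takes antizyme away from Odc1, and Sat1, Paox and Smox acetylate or oxidise the polyamines back toward putrescine. The pathway is known for high activity in growing epithelium and in tumours of the digestive tract, and Odc1 is a long-known target gene of the transcription factor MYC.

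Amd1 and Oaz1 were listed at 0 in all 12 libraries, so 8 of the 10 genes had counts and all 8 passed the filter on low counts in every comparison. Amd2, the near-identical copy of Amd1, was also listed at 0, as were Rpl26, Eif3j1 and Eif3j2, which were looked up after these values were seen. A listed 0 is not read here as absence of the mRNA, since the way of counting is not stated. Amd1 and Amd2 have coding sequences of 1005 bases that differ at 1 base (99.9% identity). The stretch that holds this base is shown because it is the only place where a read could separate the coding sequences of the pair; coding bases 751 to 840 are given, with the differing base in capitals.
Amd1: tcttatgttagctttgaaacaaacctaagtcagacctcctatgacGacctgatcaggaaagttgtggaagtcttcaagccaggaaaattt
Amd2: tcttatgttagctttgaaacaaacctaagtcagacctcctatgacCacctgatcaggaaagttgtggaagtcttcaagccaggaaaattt
Of the windows of 100 bases along the longest coding transcript of Amd1, 76.4% also occurred in a transcript of another gene, and the share was 41.8% for Oaz1, whose copy is Oaz1-ps. The share was 27.7% for Sms, 25.4% for Paox, 19.6% for Odc1, 5.4% for Azin1, 3.3% for Oaz2, 0.4% for Sat1, and 0.0% for Srm and for Smox. Rpl26 stood at 23.1%. Whether these copies bear on the zeros was not tested, and the levels of Odc1, Sms and Paox are uncertain if reads shared with a copy were split or dropped in counting. Azin1 and Paox also overlap a gene on the opposite strand, Gm49077 for Azin1 and Echs1 for Paox.

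The antizyme mRNAs are shown around the site where the ribosome shifts its reading frame to make the full protein, since only one of the pair had counts. Capitals mark the letters TCCTGA at the shift.
Oaz1: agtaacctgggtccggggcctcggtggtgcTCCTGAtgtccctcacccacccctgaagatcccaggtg
Oaz2: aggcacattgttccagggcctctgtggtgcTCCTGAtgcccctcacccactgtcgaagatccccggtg
The stretches had the same base at 55 of 68 positions. All 68 bases of the Oaz1 stretch also occurred in Oaz1-ps. The Oaz2 stretch was looked for only in Oaz1-ps, where it was not found. It was not looked for in Oaz2-ps, which shares sequence with Oaz2, so the antizymes cannot be compared in this respect.

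Upstream sequence is printed for Odc1, Sms and Sat1, because Odc1 and Sms ran together across the groups and Sat1 ran against them. It was taken from RefSeq on GRCm38.p6, which held a promoter entry for 8 of the 10 genes. Searched on both strands were the E-box CACGTG bound by MYC and MAX, the GC box GGGCGG and the TATA box TATAAA, all marked by capitals where present; no match of one motif overlapped a match of another.
Odc1, chr12:17544623-17544793, plus strand: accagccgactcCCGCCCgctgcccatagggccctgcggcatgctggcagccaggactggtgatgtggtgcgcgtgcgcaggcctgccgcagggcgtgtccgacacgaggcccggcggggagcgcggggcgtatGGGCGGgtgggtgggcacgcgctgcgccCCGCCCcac
Sms, chrX:157492288-157492537, minus strand: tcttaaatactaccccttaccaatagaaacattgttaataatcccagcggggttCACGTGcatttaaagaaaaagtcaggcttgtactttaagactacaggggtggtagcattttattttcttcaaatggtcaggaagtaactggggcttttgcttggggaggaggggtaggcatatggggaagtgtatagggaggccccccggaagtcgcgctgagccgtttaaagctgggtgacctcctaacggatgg
Sat1, chrX:155216450-155216699, minus strand: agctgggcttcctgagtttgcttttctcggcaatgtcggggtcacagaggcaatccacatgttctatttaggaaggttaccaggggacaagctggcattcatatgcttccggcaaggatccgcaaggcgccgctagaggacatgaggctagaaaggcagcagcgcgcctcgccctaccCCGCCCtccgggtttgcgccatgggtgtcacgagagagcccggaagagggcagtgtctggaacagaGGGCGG
The Sms stretch held 1 E-box, which began at position -196 from this start site, and 0 GC boxes. Sms has another RefSeq start site, whose upstream window held 0 E-boxes and 4 GC boxes and is not printed. The printed Odc1 and Sat1 stretches held 3 and 2 GC boxes. Among all 32851 mouse promoter entries, 6.02% held the E-box, 32.7% the GC box and 12.4% the TATA box within 250 bases upstream. No TATA box lay in any of the 10 entries of these genes, and Sms was the only one of these 8 genes with an E-box in any of its windows. Sequence outside these 250 bases, introns included, was not searched, so an E-box elsewhere in Odc1 or another gene would be missed. A match is a description of letters and not a bound site.

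Library totals ranged from 16584781 to 21107310 counts, at which 3 counts correspond to between 0.142 and 0.181 CPM, the count scaled to a common library total. All levels are CPM after scaling by TMM factors, and levels of different genes are compared per kilobase of merged exons. Merged exons exceeded the longest coding transcript, at 3405 against 2208 bases for Odc1 and 2774 against 1162 bases for Sat1. Comparisons of genes per kilobase therefore depend on this choice of length. Subcutaneous TM replicate 2 was unlike the rest of its group: the Y-linked genes Kdm5d, Uty, Eif2s3y and Ddx3y were all at 0, and it had 224 CPM summed over 6 epithelial genes and 7782 CPM over 8 leukocyte and myeloid genes. The other subcutaneous TM libraries had 3931 and 4224 CPM over the epithelial genes and 2902 and 3220 CPM over the leukocyte genes. In TM replicate 2 the 5 genes of T, NK, B and plasma cells summed to 2376 CPM. They came to 8.84 CPM in TM replicate 1 and to 13.0 CPM in TM replicate 3. The 5 fibroblast genes summed to 3218 CPM in TM replicate 2, below the 12549 and 15710 CPM of TM replicates 1 and 3. TM replicate 2 was kept in the main fits as 1 of 3 TM libraries. Replicate 3 of the orthotopic group had 5095 CPM over 4 liver genes, against 41.2 and 47.3 CPM in its group. The 4 parietal and chief cell genes summed to between 59.9 and 382 CPM in orthotopic TMPC tumours and to at most 1.19 CPM in subcutaneous TMPC tumours. Epithelial markers had counts in every library, lowest at 224 CPM in subcutaneous TM replicate 2 and next at 970 CPM in subcutaneous TMPC replicate 1.

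Odc1, the rate-limiting decarboxylase (chromosome 12, 17544794 to 17551505, plus strand, mm10), was highest in subcutaneous TMPC and TMP tumours and lowest in subcutaneous TM tumours. It stood at 246, 220 and 422 CPM in orthotopic TMPC, at 411, 736 and 622 CPM in subcutaneous TMPC, at 460, 388 and 427 CPM in subcutaneous TMP and at 163, 144 and 168 CPM in subcutaneous TM tumours. Every subcutaneous TMPC and TMP library lay above every TM library. The orthotopic and subcutaneous TMPC groups overlapped, because orthotopic replicate 3 (422 CPM) lay above subcutaneous replicate 1 (411 CPM). Per kilobase, Odc1 had 173 ± 48.4 CPM in subcutaneous TMPC tumours (SD, n = 3), the highest mean of the 8 genes in that group, with Srm next at 146 ± 31.4 CPM and within that spread.

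Srm, spermidine synthase (chromosome 4, 148591503 to 148594993, plus strand), followed the same order of group means. Its values were 41.7, 53.6 and 113 CPM in orthotopic TMPC, 288, 188 and 226 CPM in subcutaneous TMPC, 266, 180 and 175 CPM in subcutaneous TMP and 53.9, 54.0 and 64.5 CPM in subcutaneous TM tumours. No library of the orthotopic TMPC or subcutaneous TM groups reached the lowest subcutaneous TMP value. Within the orthotopic group, replicate 3 was again the highest library.

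Sms, spermine synthase (chromosome X, 157443855 to 157492287, minus strand), had 41.2, 42.4 and 46.5 CPM in orthotopic TMPC and 119, 95.4 and 87.5 CPM in subcutaneous TMPC tumours. In subcutaneous TMP tumours it had 79.4, 64.7 and 69.1 CPM, and in subcutaneous TM tumours 40.7, 25.7 and 45.4 CPM. The subcutaneous TMPC, subcutaneous TMP and subcutaneous TM groups did not overlap with each other, and TM replicate 2 had the lowest value of all 12 libraries. Per kilobase, Sms was the lowest of the 3 synthesis enzymes with counts in every group, at 7.22 ± 0.463 CPM in orthotopic TMPC, 16.8 ± 2.75 CPM in subcutaneous TMPC, 11.8 ± 1.25 CPM in subcutaneous TMP and 6.20 ± 1.71 CPM in subcutaneous TM tumours (SD, n = 3 each).

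Oaz2, the antizyme with counts (chromosome 9, 65668001 to 65690300, plus strand), had group means between 78.6 and 96.6 CPM. It stood at 94.6, 102 and 93.7 CPM in orthotopic TMPC, 120, 78.4 and 87.3 CPM in subcutaneous TMPC, 70.8, 80.4 and 84.6 CPM in subcutaneous TMP and 74.8, 84.5 and 84.8 CPM in subcutaneous TM tumours. The 3 subcutaneous groups overlapped, and each orthotopic library lay above each subcutaneous TMP and TM library. Azin1, the antizyme inhibitor (chromosome 15, 38487427 to 38519266, minus strand), resembles Odc1 in sequence but has no decarboxylase activity. Its levels were 175, 156 and 137 CPM in orthotopic TMPC, 147, 159 and 131 CPM in subcutaneous TMPC, 140, 118 and 137 CPM in subcutaneous TMP and 103, 145 and 97.8 CPM in subcutaneous TM tumours. All 4 groups overlapped through TM replicate 2, the highest of its group.

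Sat1, the acetyltransferase that starts breakdown and export (chromosome X, 155213132 to 155216449, minus strand), had the reverse order of groups. It stood at 341, 202 and 182 CPM in orthotopic TMPC, at 98.3, 86.7 and 111 CPM in subcutaneous TMPC, at 129, 91.1 and 122 CPM in subcutaneous TMP and at 226, 237 and 272 CPM in subcutaneous TM tumours. Every orthotopic TMPC and subcutaneous TM library lay above every subcutaneous TMPC and TMP library. Per kilobase, Sat1 had 87.0 ± 31.2 CPM in orthotopic TMPC tumours and 88.3 ± 8.55 CPM in subcutaneous TM tumours (SD, n = 3 each), beside 86.9 ± 32.2 and 46.5 ± 3.77 CPM for Odc1 in these groups.

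Smox, the oxidase that turns spermine straight into spermidine (chromosome 2, 131491496 to 131525922, plus strand), had 86.3, 78.9 and 84.3 CPM in orthotopic TMPC and 50.7, 91.0 and 77.4 CPM in subcutaneous TMPC tumours. It had 79.1, 63.7 and 94.3 CPM in subcutaneous TMP and 37.7, 72.7 and 43.6 CPM in subcutaneous TM tumours. TM replicate 2 was the highest TM library and lay inside the range of the subcutaneous TMP and TMPC groups. Paox, the oxidase of acetylated polyamines (chromosome 7, 140115799 to 140137224, plus strand), had 47.2, 54.7 and 43.3 CPM in orthotopic TMPC, 20.4, 15.8 and 43.2 CPM in subcutaneous TMPC, 45.7, 27.6 and 41.8 CPM in subcutaneous TMP and 41.3, 50.6 and 46.7 CPM in subcutaneous TM tumours. Subcutaneous TMPC replicate 3 lay within the range of the other subcutaneous groups, while replicates 1 and 2 were the lowest of the 12 libraries.

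**Figure D1:**
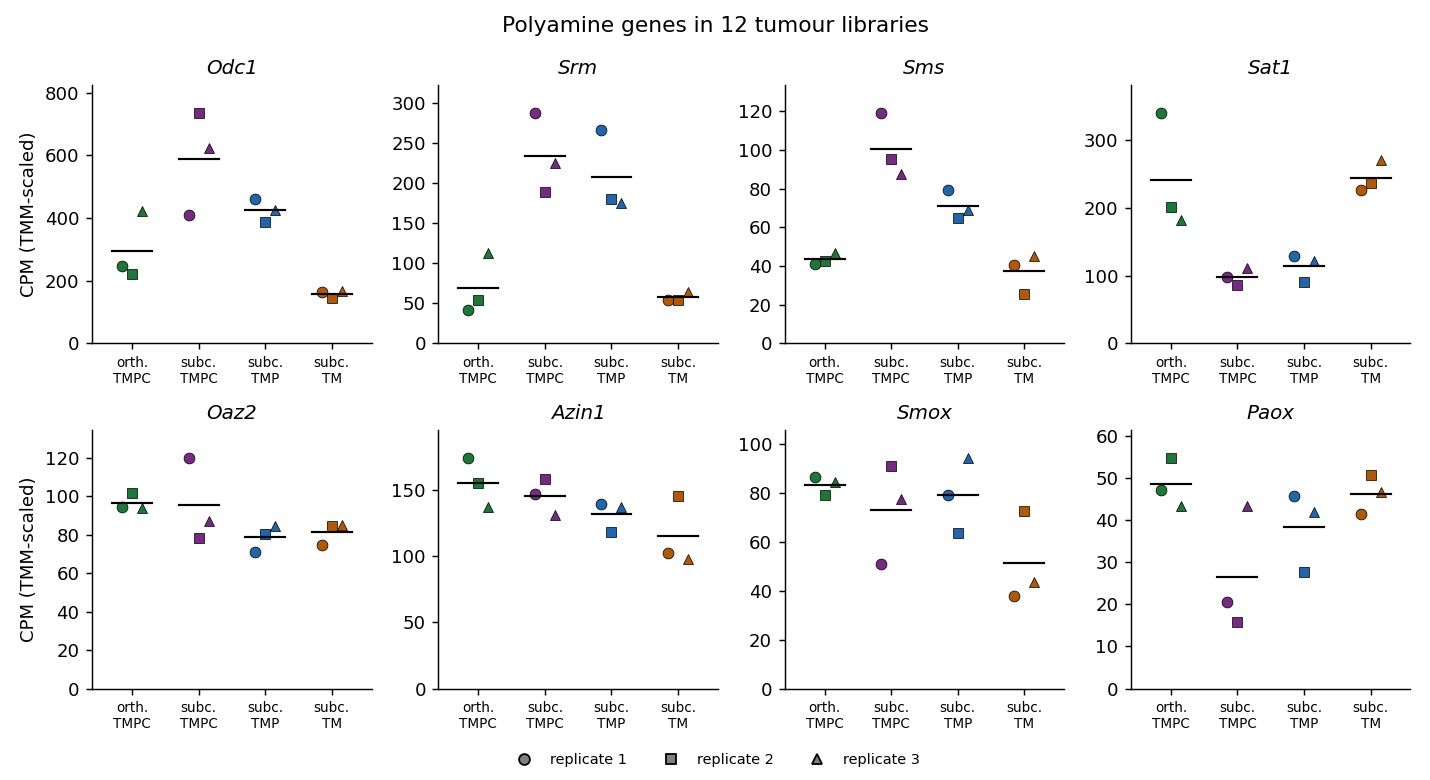
CPM after TMM scaling (vertical axis, from 0) for the 8 genes with counts, 1 panel per gene, by group; symbols are libraries, with shape giving the replicate number, and lines are group means. Odc1, Srm and Sms have their lowest means in subcutaneous TM tumours, Srm and Sms are nearly as low in orthotopic TMPC tumours, and Sat1 there stands at 182 to 341 CPM.

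The first comparison asks how TMP tumours differ from TM tumours under the skin. Synthesis genes rose and Sat1 fell: Odc1 averaged 425 ± 35.8 CPM in TMP and 158 ± 12.8 CPM in TM libraries (SD, n = 3 each), a log2 fold change of 1.39 ± 0.22 (SE, adjusted p = 0.0051). Srm had a mean of 207 ± 51.2 CPM in TMP and 57.5 ± 6.09 CPM in TM tumours, with a log2 fold change of 1.81 ± 0.22 and an adjusted p of 0.0025. Sms rose by a log2 fold change of 0.90 ± 0.21 (adjusted p = 0.0184) and Sat1 fell by 1.14 ± 0.17 on the log2 scale (adjusted p = 0.0046). Adjusted p-values come throughout from the quasi-likelihood test of edgeR, corrected by Benjamini-Hochberg over all genes tested, with a threshold of 0.05. The 9 subcutaneous libraries entered 1 fit.

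Of the 8 genes, 3 were higher and 1 was lower in TMP tumours, beside 27.7% of all 15277 genes past the threshold in this comparison (14.3% higher and 13.4% lower). The groups did not overlap for these 4 genes, nor for 50.7% of all genes. The median log2 fold change was 1.39 over the 3 synthesis genes, -0.31 over the 3 breakdown genes and -0.07 over all genes. Oaz2 (-0.09 ± 0.18), Azin1 (0.14 ± 0.20), Smox (0.56 ± 0.33) and Paox (-0.31 ± 0.37) did not pass. The Sms call was lost without TMP replicate 1 (adjusted p = 0.0803), TMP replicate 2 (0.0501) or TMP replicate 3 (0.0550). Without TM replicate 2, Smox passed with a log2 fold change of 0.97 (adjusted p = 0.0318).

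The second comparison sets subcutaneous TMPC tumours against the same TM libraries, so it shares its reference values with the first. The same 4 genes by name passed: Odc1 averaged 589 ± 165 CPM in TMPC and 158 ± 12.8 CPM in TM tumours (SD, n = 3 each), a log2 fold change of 1.84 ± 0.22 (adjusted p = 0.0012). Srm averaged 234 ± 50.2 CPM in TMPC and 57.5 ± 6.09 CPM in TM tumours, with a log2 fold change of 1.96 ± 0.22 and an adjusted p of 0.0010. Sms rose by a log2 fold change of 1.38 ± 0.21 (adjusted p = 0.0029), with 101 ± 16.5 CPM in TMPC and 37.2 ± 10.3 CPM in TM tumours. Sat1 fell by 1.38 ± 0.17 on the log2 scale (adjusted p = 0.0015), with 98.6 ± 12.1 CPM in TMPC and 245 ± 23.7 CPM in TM tumours.

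These 3 higher and 1 lower of 8 genes stand beside 35.8% of all genes past the threshold (18.0% higher and 17.8% lower). The 4 genes also had groups that did not overlap, as did 47.7% of all genes. Oaz2 (0.16 ± 0.18), Azin1 (0.26 ± 0.20), Smox (0.43 ± 0.33) and Paox (-0.87 ± 0.38) did not pass. Paox passed without TMPC replicate 3 (log2 fold change -1.38, adjusted p = 0.0156). Azin1 (0.54, adjusted p = 0.0179) and Smox (0.85, adjusted p = 0.0398) passed without TM replicate 2, which brings the count to 6 of 8. Over all genes 3238 were higher and 3152 lower of 15668 in that fit, against 2748 and 2721 of 15277 in the main fit.

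Markers of dividing cells moved with the synthesis genes. Mki67, Top2a, Ccna2, Mcm2 and Rrm2 summed to between 492 and 808 CPM in orthotopic TMPC, 1619 and 1905 CPM in subcutaneous TMPC, 1248 and 1395 CPM in subcutaneous TMP and 341 and 417 CPM in subcutaneous TM tumours. All 5 were higher in TMP and in TMPC than in TM tumours, all 5 were lower in orthotopic than in subcutaneous TMPC tumours, and none of them was at 0 in any library. Leukocyte and myeloid markers summed higher in the groups with more Sat1: the 8 genes came to between 1281 and 2128 CPM in orthotopic TMPC, 600 and 1210 CPM in subcutaneous TMPC, 480 and 1048 CPM in subcutaneous TMP and 2902 and 7782 CPM in subcutaneous TM tumours. Of these 8 markers 7 were lower in TMP and 7 were lower in TMPC than in TM tumours, 2 were higher in orthotopic than in subcutaneous TMPC tumours, and none was at 0. They were not alone in this direction. In the same comparisons, median log2 fold changes were -0.77, -1.33 and 1.26 for 5 fibroblast genes and -1.15, -1.56 and 1.16 for 3 endothelial genes. The leukocyte and myeloid medians were -2.88, -3.15 and 1.62. Only 1 fibroblast gene passed in each comparison, and 1 endothelial gene in the last. Skeletal muscle markers (Acta1, Ckm, Mylpf and Tnnt3) summed to between 3.17 and 6.81 CPM in orthotopic TMPC, 21.4 and 154 CPM in subcutaneous TMPC, 2.78 and 138 CPM in subcutaneous TMP and 1.81 and 3.01 CPM in subcutaneous TM tumours. Of these 4 genes 1 was higher in TMP and 2 were higher in TMPC than in TM tumours, and Ckm was at 0 in all 3 TM libraries and in TMP replicate 3. The part of any of these cell types in the polyamine results was not tested. Within the TM group the library with 7782 CPM of leukocyte markers had 237 CPM of Sat1, between the 226 and 272 CPM of the other libraries. That library also differed in epithelial, fibroblast and T, NK, B and plasma cell markers, so nothing about leukocytes is concluded from its Sat1.

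TMPC against TMP tumours under the skin gave no call among the 8 genes, nor among any of the 15277 genes (0.0% past the threshold; 465 genes, 3.04%, had an unadjusted p under 0.05, and DESeq2 called 17 genes, none of them among the 8). Odc1 had a log2 fold change of 0.45 ± 0.21, with a 95% interval from -0.04 to 0.94, and an adjusted p of 0.99995. Sms had 0.48 ± 0.21, with an interval from -0.00 to 0.96, and its groups did not overlap, as was the case for 12.8% of all genes. The intervals ran from -0.34 to 0.65 for Srm, from -0.63 to 0.16 for Sat1 and from -1.42 to 0.30 for Paox. Changes of these sizes therefore could not be told from none with 3 libraries in each group.

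**Figure D2:**
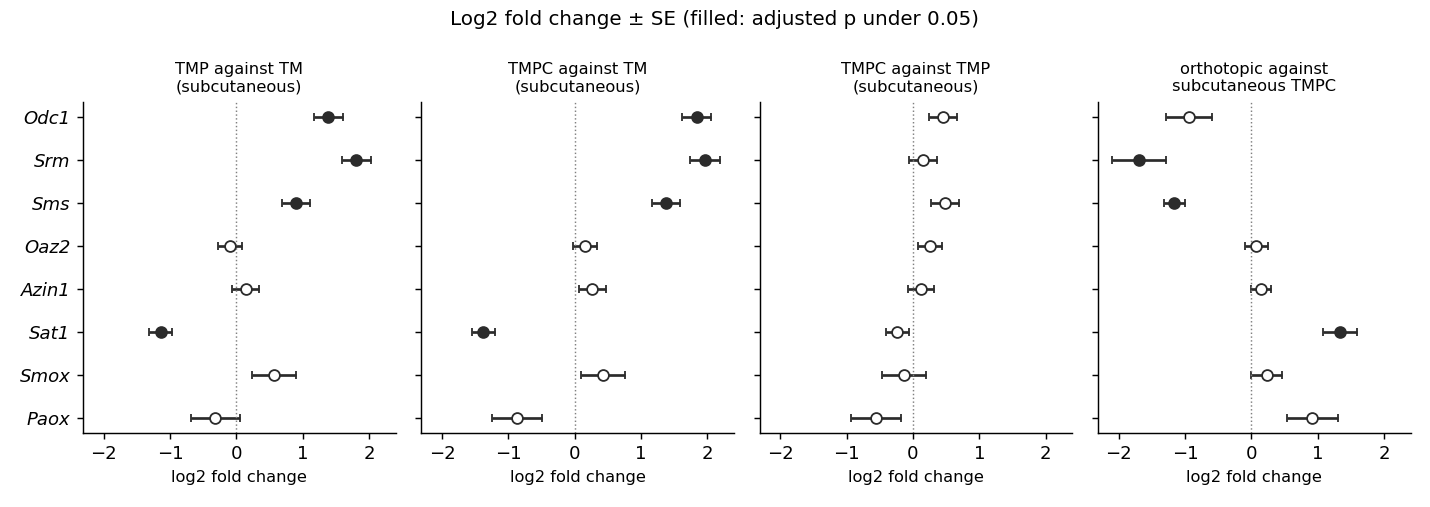
Log2 fold change (horizontal axis) with its SE for the 8 genes in the 4 comparisons; filled points passed an adjusted p of 0.05. Odc1, Srm and Sms lie to the right and Sat1 to the left in both comparisons with TM, and the orthotopic comparison shows Srm and Sms on the left (-1.69 and -1.16) and Sat1 on the right (1.34).

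The fourth comparison asks how the site of growth bears on TMPC tumours. Orthotopic tumours had less Srm and Sms and more Sat1 than subcutaneous ones. Srm averaged 69.4 ± 38.1 CPM in orthotopic and 234 ± 50.2 CPM in subcutaneous tumours (SD, n = 3 each), a log2 fold change of -1.69 ± 0.41 (SE, adjusted p = 0.0279). Sms averaged 43.4 ± 2.78 CPM in orthotopic and 101 ± 16.5 CPM in subcutaneous tumours, with a log2 fold change of -1.16 ± 0.16 and an adjusted p of 0.0098. Sat1 averaged 241 ± 86.6 CPM in orthotopic and 98.6 ± 12.1 CPM in subcutaneous tumours, with a log2 fold change of 1.34 ± 0.26 and an adjusted p of 0.0165. Odc1 did not pass, with 296 ± 110 CPM in orthotopic and 589 ± 165 CPM in subcutaneous tumours (log2 fold change -0.94 ± 0.34, adjusted p = 0.082).

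The count was 1 higher and 2 lower of 8 genes, beside 27.8% of all 15123 genes past the threshold (14.0% higher and 13.8% lower). Groups did not overlap for Srm, Sms, Sat1 and Paox, nor for 48.7% of all genes. Oaz2 (0.08 ± 0.18), Azin1 (0.15 ± 0.15), Smox (0.24 ± 0.23) and Paox (0.92 ± 0.38) did not pass. The median log2 fold change was -1.16 over the synthesis genes, 0.92 over the breakdown genes and 0.05 over all genes.

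Markers of other cells differed between the sites as well. The 6 epithelial genes summed to between 4066 and 7021 CPM in orthotopic and 970 and 3183 CPM in subcutaneous TMPC tumours, with 3 of the 6 higher. All 4 parietal and chief cell genes were higher in orthotopic tumours, and Atp4b and Pgc were at 0 in all 3 subcutaneous TMPC libraries. All 4 skeletal muscle genes were lower in orthotopic tumours, with a median log2 fold change of -4.46. The part of these cells in the polyamine values was not tested.

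Some calls of the site comparison were lost or gained when single libraries were left out. Across alternative fits the log2 fold change ran from -2.26 to -1.42 for Srm, -1.26 to -1.05 for Sms and 1.03 to 1.48 for Sat1. Srm was no longer past the threshold without orthotopic replicate 1 (adjusted p = 0.0705) or 2 (0.0907), or without subcutaneous replicate 1 (0.0627), 2 (0.0558) or 3 (0.0698). It was also lost with the replicate number as a block (log2 fold change -1.81, adjusted p = 0.0539). Without orthotopic replicate 2 none of the 8 genes passed. Sms then had a log2 fold change of -1.15 (adjusted p = 0.0511) and Sat1 of 1.45 (adjusted p = 0.0517). Over all genes 288 were higher and 99 lower of 15402 in that fit, against 2118 and 2086 of 15123 in the main fit. Without subcutaneous replicate 2 only Sms passed, Sat1 having a log2 fold change of 1.21 and an adjusted p of 0.0710. Over all genes 677 were then higher and 971 lower of 15759. Paox passed without subcutaneous replicate 3 (log2 fold change 1.46, adjusted p = 0.0328). Orthotopic replicate 3, the library with liver genes, had the highest Odc1 and Srm of its group, and without it the log2 fold change was -1.32 for Odc1 (adjusted p = 0.0244) and -2.26 for Srm.

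Ratios of counts within a library do not depend on how libraries are scaled. They are not corrected for transcript length and are compared only between libraries, so that a ratio above or below 1 does not rank the levels of the genes. The planned ratios to Oaz1 could not be formed, and Oaz2 took its place after the zeros were seen. Odc1 counts per Sat1 count were 0.722, 1.09 and 2.32 in orthotopic TMPC, 4.18, 8.49 and 5.61 in subcutaneous TMPC, 3.55, 4.26 and 3.50 in subcutaneous TMP and 0.723, 0.606 and 0.617 in subcutaneous TM tumours. Every subcutaneous TMPC and TMP library had a higher ratio than every orthotopic TMPC and TM library, and orthotopic replicate 1 lay within the range of the TM group.

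Odc1 counts per Oaz2 count were 2.6, 2.16 and 4.50 in orthotopic TMPC, 3.42, 9.39 and 7.12 in subcutaneous TMPC, 6.49, 4.83 and 5.04 in subcutaneous TMP and 2.18, 1.7 and 1.98 in subcutaneous TM tumours. The range in subcutaneous TMPC tumours overlapped that of orthotopic TMPC tumours. Srm counts per Sms count were 1.01, 1.26 and 2.42 in orthotopic TMPC, 2.41, 1.98 and 2.58 in subcutaneous TMPC, 3.35, 2.78 and 2.53 in subcutaneous TMP and 1.33, 2.10 and 1.42 in subcutaneous TM tumours. TM replicate 2 and orthotopic replicate 3 stood above their groups in this ratio and inside the range of subcutaneous TMPC tumours.

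Smox counts per Sat1 count were 0.253, 0.391 and 0.463 in orthotopic TMPC, 0.516, 1.05 and 0.698 in subcutaneous TMPC, 0.611, 0.699 and 0.774 in subcutaneous TMP and 0.167, 0.307 and 0.161 in subcutaneous TM tumours. Each subcutaneous TMPC and TMP library exceeded each orthotopic TMPC and TM library. No test was applied to these ratios.

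**Figure D3:**
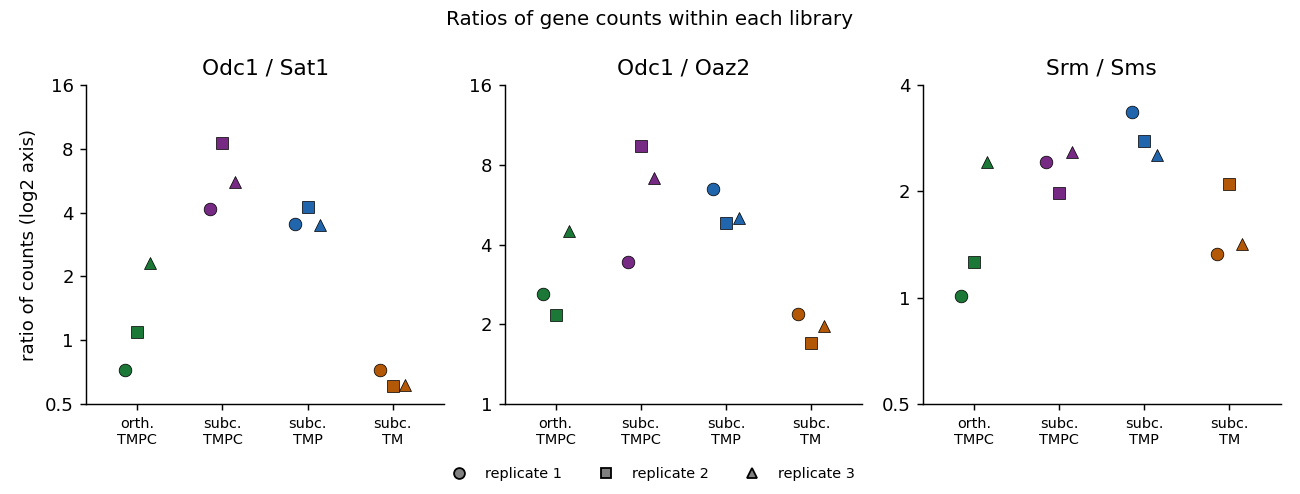
Ratio of counts within each library (vertical axis, log2 scale) for Odc1 to Sat1, Odc1 to Oaz2 and Srm to Sms, by group; symbols are libraries, with shape giving the replicate number. The Odc1 to Sat1 ratio lies between 3.50 and 8.49 in subcutaneous TMPC and TMP tumours and between 0.606 and 2.32 in the other groups.

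Across the 12 libraries, which share the split into 4 groups and differ in cell content, log2 CPM of the synthesis genes moved together, with a Pearson r of 0.84 for Odc1 and Srm, 0.84 for Odc1 and Sms and 0.90 for Srm and Sms. Sat1 ran against them, at -0.82 with Odc1, -0.91 with Srm and -0.84 with Sms, and Paox followed Sat1 at 0.72. Azin1 and Smox had an r of 0.76 with each other and of 0.34 and 0.53 with Odc1. Oaz2 had -0.02 with Odc1 and 0.04 with Sat1. The genes most like Odc1 among 12340 genes with a mean of at least 5 CPM were Eif2s1 (r = 0.98), which encodes a subunit of translation initiation factor eIF2, Nemf (0.98), a ribosome quality control factor, and Gen1 (0.97), a resolvase of recombination intermediates.

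Eif2s1 averaged 195 ± 38.6 CPM in orthotopic TMPC, 407 ± 93.8 CPM in subcutaneous TMPC, 294 ± 15.3 CPM in subcutaneous TMP and 136 ± 16 CPM in subcutaneous TM tumours (SD, n = 3 each). The genes most like Sat1 were Spop (r = 0.96), a substrate adaptor of a ubiquitin ligase, Rmdn1 (0.96) and Galnt11 (0.96), a glycosyltransferase. Spop averaged 257 ± 50.7 CPM in orthotopic TMPC, 158 ± 12.4 CPM in subcutaneous TMPC, 150 ± 9.94 CPM in subcutaneous TMP and 269 ± 18.5 CPM in subcutaneous TM tumours.

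Around these 10 genes, 28 further genes of polyamine metabolism were listed, of which 24 were tested in each comparison. In TMP against TM tumours 5 were higher and 5 lower, in TMPC against TM tumours 7 were higher and 4 lower, in TMPC against TMP tumours 0 passed, and in orthotopic against subcutaneous TMPC tumours 0 were higher and 7 lower. The background shares for these main-fit calls are those given for each comparison. The first count of 10 calls fell to 4, 5 and 6 without TMP replicate 1, 2 or 3. Over all genes, 1067, 1371 and 1259 were then higher and 483, 761 and 611 lower, of 15810, 15754 and 15755 tested. The last count of 7 fell to 4, 3 and 4 without orthotopic replicate 1, orthotopic replicate 2 or subcutaneous replicate 2. Over all genes, 659, 288 and 677 were then higher and 562, 99 and 971 lower, of 15308, 15402 and 15759 tested. DESeq2 called 12 in the site comparison, beside 3155 higher and 2965 lower of all 15123 genes. Without TM replicate 2 the counts were 8 in TMP and 11 in TMPC against TM. Calls over all 15668 genes there were 2514 higher and 2371 lower in TMP, and 3238 higher and 3152 lower in TMPC. Without orthotopic replicate 3 the site comparison had 8, beside 2591 higher and 2198 lower of all 15663 genes. Copies of these further genes elsewhere in the genome were not searched.

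Aldh18a1, which makes the precursor of proline and ornithine, behaved like the synthesis genes. It had 41.5, 57.8 and 63.8 CPM in orthotopic TMPC, 171, 183 and 188 CPM in subcutaneous TMPC, 222, 135 and 127 CPM in subcutaneous TMP and 52.7, 52.1 and 50.1 CPM in subcutaneous TM tumours. Its log2 fold change was 1.60 ± 0.22 in TMP against TM (adjusted p = 0.0031), 1.74 ± 0.22 in TMPC against TM (adjusted p = 0.0014) and -1.68 ± 0.20 in orthotopic against subcutaneous TMPC tumours (adjusted p = 0.0087). Oat, the mitochondrial aminotransferase that links ornithine to glutamate, went the other way. It had 173, 120 and 139 CPM in orthotopic TMPC, 120, 74.2 and 65.6 CPM in subcutaneous TMPC, 81.7, 92.3 and 127 CPM in subcutaneous TMP and 227, 191 and 304 CPM in subcutaneous TM tumours. Oat fell by 1.53 ± 0.28 on the log2 scale in TMPC against TM tumours (adjusted p = 0.0057) and by 1.30 ± 0.28 in TMP against TM tumours (adjusted p = 0.0149), the call in TMP being lost without TMP replicate 1 or 2.

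Spermidine is the donor for hypusine, a modified lysine in the translation factor eIF5A that Dhps and Dohh make. Eif5a had 741, 834 and 1000 CPM in orthotopic TMPC, 1837, 1945 and 2289 CPM in subcutaneous TMPC, 2122, 1550 and 1626 CPM in subcutaneous TMP and 646, 679 and 810 CPM in subcutaneous TM tumours. Its log2 fold change was 1.27 ± 0.19 in TMP against TM (adjusted p = 0.0041), 1.44 ± 0.19 in TMPC against TM (adjusted p = 0.0016) and -1.18 ± 0.20 in orthotopic against subcutaneous TMPC tumours (adjusted p = 0.0135). Dohh, the hydroxylase of the second step, changed by 1.00 ± 0.15 (adjusted p = 0.0041), 1.14 ± 0.15 (adjusted p = 0.0016) and -0.73 ± 0.12 (adjusted p = 0.0130) in the same comparisons. Dhps did not pass in any of the 4 comparisons, nor did Eif5a2. Both Eif5a and Dohh lost the site call without orthotopic replicate 2, with adjusted p-values of 0.0591 and 0.0596.

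Of the 5 genes that salvage methylthioadenosine, the by-product of spermidine and spermine synthesis, 1 was higher in TMP and 2 in TMPC against TM tumours, and 2 were lower in orthotopic against subcutaneous TMPC tumours. Mtap, the first enzyme of the salvage, was among the calls in all of these comparisons, with a log2 fold change of 1.56 ± 0.37 in TMP and 1.68 ± 0.37 in TMPC against TM tumours and of -1.31 ± 0.30 between the sites. Its TMP call was lost without TMP replicate 1 or 2, and its site call without orthotopic replicate 1 or subcutaneous replicate 2 or 3. Among the 7 transport genes, Slc7a1, a carrier of arginine and ornithine, had 56.5, 74.2 and 74.6 CPM in orthotopic and 187, 169 and 169 CPM in subcutaneous TMPC tumours (log2 fold change -1.30 ± 0.16, adjusted p = 0.0091). Atp13a3, a P-type ATPase linked to polyamine uptake, rose by 0.74 ± 0.14 in TMP against TM tumours (adjusted p = 0.0094) and by 0.68 ± 0.14 in TMPC against TM tumours (adjusted p = 0.0088). Atp13a2, a lysosomal polyamine exporter, fell by 1.02 ± 0.26 and 1.15 ± 0.26 on the log2 scale in these comparisons, the call in TMP being lost without TMP replicate 1 or 3 and with only the 2 groups compared in the fit.

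**Figure D4:**
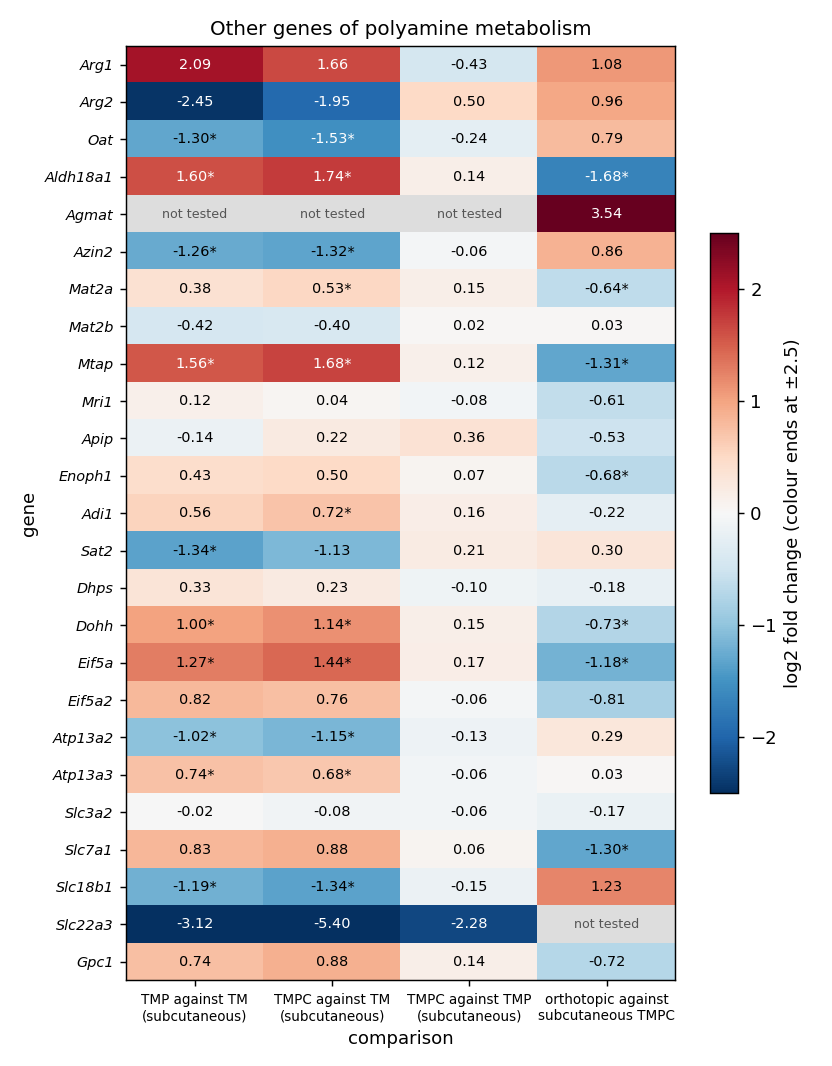
Log2 fold change (number and colour, ending at ±2.5) of the 25 further polyamine genes tested in at least 1 comparison, in rows, for the 4 comparisons, in columns; an asterisk marks an adjusted p under 0.05. Aldh18a1, Mtap, Dohh and Eif5a are higher in both comparisons with TM and lower in orthotopic tumours.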

How the data were processed

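PolyA RNA of about 1 cm3 of tumour tissue was read as pairs of 150 bp, per the labels' protocols. Groups come from the sample titles. The submitters' processing notes name STAR 2.6.0, DESeq2 and the mm10 build; which counter and annotation were used, and whether strand was, is not stated in them. The authors deposited gene counts as whole numbers in 2 tables of 24421 entries and, per the file headers, a DESeq2-normalized signal in which each library's counts are divided by its own size factor. Among the subcutaneous entries, 12131 symbols are displaced, starting at entry 12291, so symbols were taken by position from the other table. The signal times the size factors then matched the counts for 24417 of 24417 genes within 0.01 reads, against 14200 of 24419 as deposited. The 2 single-cell samples were not analysed here.

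The test was that of edgeR 4.0.16 under R 4.3.3 (glmQLFit, glmQLFTest, TMM, filterByExpr) after the steps were tested on simulated data. There 100 genes were changed 2-fold and 100 genes 4-fold. Over the 4 comparisons, 0% to 1% of the 2-fold and 26% to 42% of the 4-fold changes passed. These shares depend on how many genes change, so they do not carry over directly to the data. A gene that did not pass may still differ. Benjamini-Hochberg adjustment ran over all genes, at 0.05. One fit held the 9 subcutaneous libraries (6 residual degrees of freedom), another the 6 TMPC libraries (4). The SE is the log2 fold change divided by the square root of F. Alternatives were DESeq2 1.42.0, RLE factors, library totals, no filter, other sets of libraries in the fit, a replicate block and leaving out each library. CPM used TMM factors over 12 libraries and correlations log2 CPM with a prior count of 2. Floors of 3 counts cover counting error only, whereas the intervals of fold changes rest on the SE and include the spread between libraries. Positions and exon lengths come from GENCODE M21 on mm10. No library was a duplicate of another of its group (chi-square per degree of freedom from 28.4 to 429). All 10 genes were to be described, together with the 4 further polyamine genes of smallest adjusted p per comparison and the 3 genes most like Odc1 and Sat1; Atp13a2, Mtap and the calls counted beside them were named after their values were seen. The genes and lists were chosen with earlier results of these data known.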

Additional observations from a re-analysis of the deposited data

How the results depend on the processing

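For the 8 genes in 4 comparisons (32 log2 fold changes), 431 of 456 alternative values kept the direction and the side of the threshold, 8 moved past it, 12 fell short of it and 5 changed sign, none of these 5 being past the threshold. The sign changed for Oaz2 in TMP against TM without TMP replicate 1 (range over omissions -0.13 to 0.0196) and between the sites without subcutaneous TMPC replicate 2 (-0.10 to 0.25). It also changed in TMPC against TMP for Srm without TMPC replicate 1 (-0.0014 to 0.40) and for Smox without TMPC replicate 1 or TMP replicate 3 (-0.30 to 0.0891). Odc1 passed between the sites under DESeq2 (adjusted p = 0.0279) and with all 12 libraries in 1 fit (0.0216). Leaving out 1 library gave 3 to 5 genes of the 8 in TMP against TM, 4 to 6 in TMPC against TM, 0 in TMPC against TMP and 0 to 4 between the sites. Over all genes the calls ranged from 1550 to 4885 around 4239, from 3414 to 6390 around 5469, and from 387 to 4789 around 4204, and were 0 for TMPC against TMP, where DESeq2 called 17. Fitting the 2 groups alone gave 3536 calls in TMPC against TM. The cause of these shifts was not tested.

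Replicate numbers showed no clear pairing between the TMPC sites. Correlations of deviations were 0.07, -0.07 and -0.03 there, and 2 of 6 libraries correlated best with their own number. Between TMP and TM the correlations were 0.23, 0.27 and 0.08, and 5 of 6 libraries correlated best with their own number. These libraries may therefore be paired, which the main fits did not take into account. With the replicate block, 4, 4, 0 and 2 of the 8 genes passed in the 4 comparisons, and 3032, 4295, 0 and 1777 of all genes. At these depths all 8 genes lay far above the floor, so that the spread between 3 libraries, and not counting error, limits the comparisons; no scaling moved the median of all genes by over 0.1.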
